A study of Penicillium oxalicum with 6 samples.

Results

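The 2 rod genes and the conidiation regulator gene *brlA* of the filamentous fungus *Penicillium oxalicum* were examined in RNA-seq of mycelium, because the study ties them to hyphal growth and to the formation of asexual spores. The members were taken by their gene numbers, *POX_a00279* (*rodA-like*), *POX_c03497* (*rodB*) and *POX_c03558* (*brlA*), and they are 3 of the 9822 genes listed in each library. The names of the 3 genes are those of the study, and no protein or promoter sequence of them was used here. Of the 6 libraries, 3 (titled POXKu70, genotype label WT) came from the parental strain Δ*ku70*, in which loss of *ku70*, a gene of non-homologous end joining, makes gene targeting efficient. The other 3 (titled POX00418) came from the deletion strain Δ*rsrC*, in which a C2H2 zinc-finger gene labelled POX00418, *rsrC* (*POX_a01508*) in the study, was removed from the Δ*ku70* background, so that all libraries share the *ku70* deletion. Spores washed from plates were grown in glucose medium for 24 h, and the mycelium was then moved to a second liquid medium for a further 24 h. One label names Avicel, a cellulose, as the carbon source of the second medium, another names raw starch, and the study names corn starch; each description is the same for all libraries.

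In *Aspergillus*, where these genes are best known, *brlA* encodes a C2H2 zinc-finger protein that switches on the central pathway of conidiophore development, and the regulators AbaA and WetA act after it. Rod genes encode hydrophobins, small secreted proteins with paired cysteines that assemble on the outer face of the cell wall. RodA forms the rodlet layer that makes airborne conidia water-repellent, and RodB is a related hydrophobin of the conidial wall. Conidiation is usually held back in submerged mycelium.

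Levels are given as FPKM, a count of fragments per gene divided by gene length and by the total of mapped fragments. They can therefore be compared between genes. Absolute depth is unknown. Between 8451 and 8535 genes reached 1 FPKM in a library, and 854 to 909 were listed at 0. The median gene stood at 31.4 to 32.1 FPKM in Δ*ku70* and at 26.6 to 27.6 FPKM in Δ*rsrC*. The deleted gene *rsrC* (*POX_a01508*) read 27.1, 30.3 and 39.0 FPKM in the parental libraries, and all 3 mutant libraries list it at 0. Adjusted p-values come from limma on log2(FPKM + 1), fitted over the 8605 genes whose mean reached 1 FPKM, adjusted with the Benjamini-Hochberg method, and log2 changes are Δ*rsrC* minus Δ*ku70* on that scale. All 3 members passed the filter. The study calls the 3 libraries of a strain biological replicates, while the labels do not name separate cultures, and p-values measure the spread between these libraries.

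Both rod genes were lower without *rsrC*, while *brlA* stayed close to 1 FPKM in both strains and its groups overlapped. The 2 rod genes were called at an adjusted p-value under 0.05, against 39.3% of all tested genes in either direction and 25.6% called as lower, so a call alone did not set them apart in these libraries. The size of the fall was less common on the log2(FPKM + 1) scale, which compresses the falls of low genes. On it, 1.39% of tested genes had a log2 change at or below that of *rodA-like*, and 2.52% at or below that of *rodB*. The share for *rodB* leans on Δ*rsrC* replicate 3, without which its log2 change was -0.85. In bulk RNA, fewer cells that carry a transcript and less transcript per cell cannot be told apart.

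**Figure D1:**
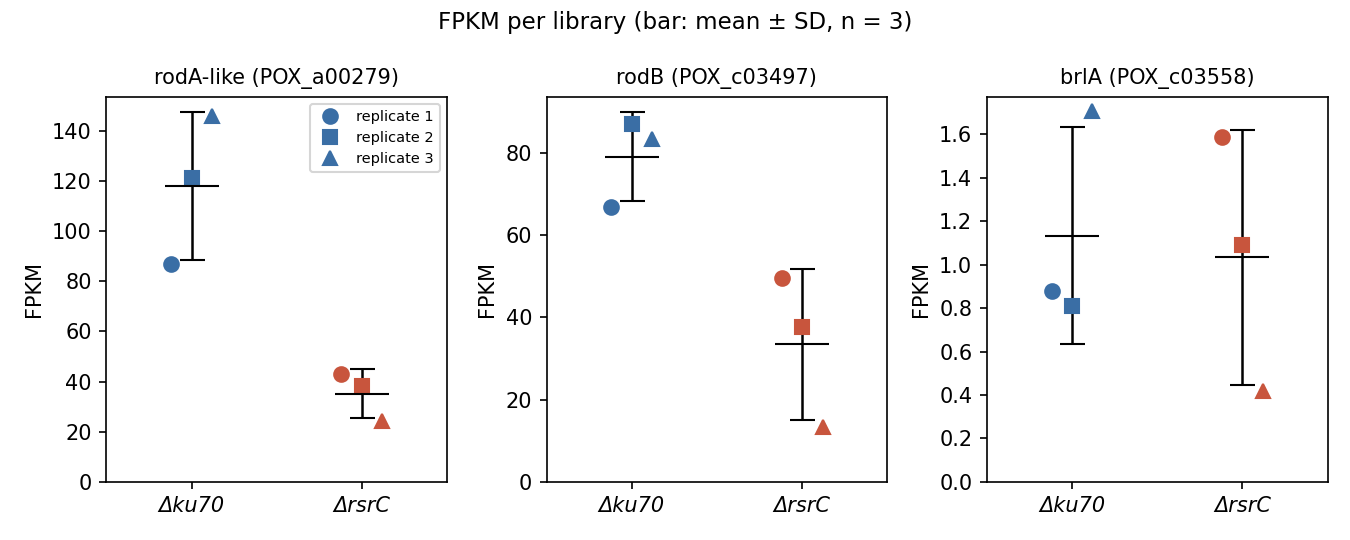
FPKM of *rodA-like*, *rodB* and *brlA* in each library, with the mean and SD of each strain (n = 3) and a separate linear axis from 0 for each gene. Both rod genes are lower in every Δ*rsrC* library than in any Δ*ku70* library, the *brlA* values overlap around 1 FPKM, and Δ*rsrC* replicate 3 is the lowest library for all 3 genes.

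The *rodA-like* gene, whose name likens it to the rodlet hydrophobin gene, gave 87.1, 121 and 146 FPKM in parental replicates 1, 2 and 3. The mutant replicates 1, 2 and 3 gave 43.0, 38.2 and 24.4 FPKM. The highest Δ*rsrC* library thus lay below the lowest Δ*ku70* library. The parental mean was 118 ± 29.5 FPKM (SD, n = 3) and the mutant mean 35.2 ± 9.67 FPKM (SD, n = 3), so that the level fell by 70.2%. In limma the log2 change of -1.72 had an SE of 0.26, a 95% interval from -2.34 to -1.11 and an adjusted p of 0.00421. Non-overlapping lower values were also found for 35.2% of tested genes.

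The gene moved from the upper part of the range of levels towards its middle. In Δ*ku70*, 75.6% to 84.7% of the listed genes had a lower FPKM than *rodA-like*, and in Δ*rsrC* 47.9% to 61.6%. Relative to the median gene of its own library, a measure that does not depend on how libraries are scaled, *rodA-like* stood at 2.77-, 3.78- and 4.64-fold in Δ*ku70* and at 1.59-, 1.39- and 0.918-fold in Δ*rsrC*. These ratios did not overlap either.

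The call of *rodA-like* was kept under each of the 15 alternative settings. Its log2 change ranged from -1.95 (after rescaling to equal sums of FPKM, TPM) to -1.49 (without Δ*rsrC* replicate 3), with adjusted p-values from 0.00163 to 0.0225. Its mean FPKM fell by 65.6% without Δ*rsrC* replicate 3 and fell by 73.6% without Δ*ku70* replicate 1, the extremes over the 6 omitted libraries.

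The *rodB* gene, the second rod gene of the pair, gave 66.7, 87.0 and 83.4 FPKM in parental replicates 1, 2 and 3. The mutant replicates gave 49.5, 37.6 and 13.4 FPKM in the same order. The strains did not overlap, but Δ*rsrC* replicate 1 came within 17.3 FPKM of Δ*ku70* replicate 1, while Δ*rsrC* replicate 3 was far below its own group. The parental mean was 79.1 ± 10.8 FPKM (SD, n = 3) and the mutant mean 33.5 ± 18.4 FPKM (SD, n = 3), so that the level fell by 57.7%. In limma the log2 change of -1.39 had an SE of 0.44, a 95% interval from -2.42 to -0.36 and an adjusted p of 0.0425.

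The spread of *rodB* was uneven between the strains. Its highest library was 1.30-fold above its lowest in Δ*ku70* and 3.71-fold in Δ*rsrC*. The SD of its log2 values was 0.20 in Δ*ku70*, where 55.5% of tested genes had a smaller one, and 0.95 in Δ*rsrC*, where 97.9% did. For *rodA-like* the corresponding SDs were 0.37 and 0.42. The position of *rodB* in the library moved accordingly, from 70.0% to 75.2% of listed genes below it in Δ*ku70* to 65.0%, 57.9% and 34.3% in Δ*rsrC* replicates 1, 2 and 3.

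The call of *rodB* was not stable. It was lost under 9 of the 15 alternatives, with limma adjusted p-values of 0.0523 with no filter on low values, 0.0608 after median-ratio scaling, 0.0607 after quantile normalization, 0.0533 without an intensity trend and 0.0607 with the replicate number as a block. It was also lost without Δ*ku70* replicate 1 (0.0772), 2 (0.105) or 3 (0.0788) and without Δ*rsrC* replicate 2 (0.0686). Without Δ*rsrC* replicate 3 the log2 change shrank to -0.85 and the mean FPKM fell by 44.9%, while the adjusted p-value of 0.0227 was past the threshold. The direction was the same under all 15 alternatives.

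**Figure D2:**
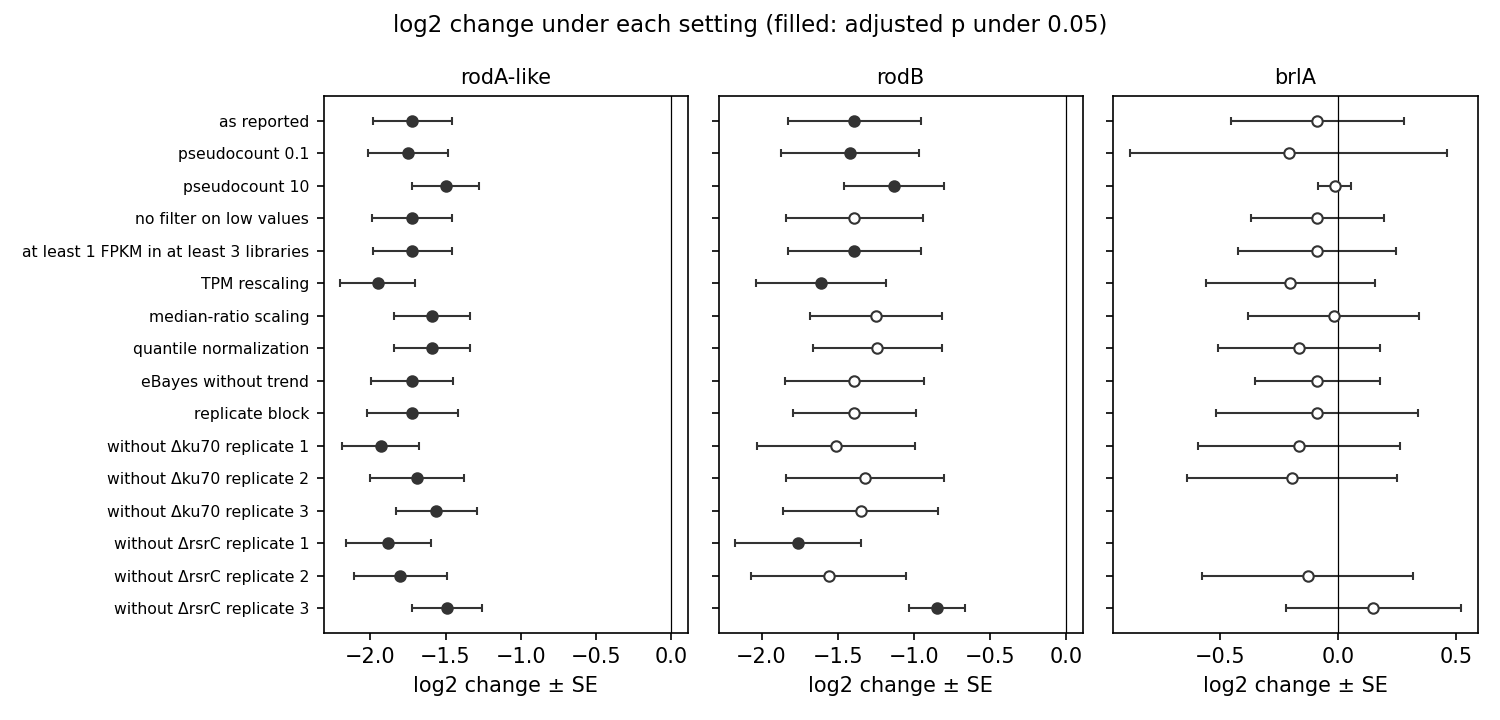
The log2 change (Δ*rsrC* minus Δ*ku70*, with its SE) of each gene as reported and under each of the 15 alternative settings, with filled points where the adjusted p-value was under 0.05. All points of *rodA-like* are filled, and those of *rodB* lie on the same side of 0 but many are open. Those of *brlA* lie close to 0, all but 1 of them below it, with SE bars that cross 0. *brlA* has no point in the 2 fits where its mean was under 1 FPKM.

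Both rod genes stood at similar levels, and their ratio was followed within each library, since a ratio of 2 genes in 1 library does not depend on scaling. The *rodA-like* gene was 1.30-, 1.39- and 1.75-fold above *rodB* in Δ*ku70* replicates 1, 2 and 3. In Δ*rsrC* the ratio was 0.870, 1.02 and 1.83 in the same order. The Δ*rsrC* libraries thus held the lowest and the highest ratio of the 6. The log2 ratio averaged 0.56 ± 0.22 (SD, n = 3) in the parental libraries, against 0.23 ± 0.56 (SD, n = 3) in the mutant, and the two-sided exact permutation p-value was 0.5, where 3 against 3 allows 0.1 at the least. A difference between the falls of the 2 rod genes was not detectable with these libraries. The outcome leaned on Δ*rsrC* replicate 3. The difference in mean log2 ratio was -0.325 with it and -0.64 without it (exact permutation p = 0.1), where the ratios of the strains did not overlap.

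The regulator gene *brlA* gave 0.880, 0.810 and 1.71 FPKM in parental replicates 1, 2 and 3. The mutant replicates gave 1.59, 1.09 and 0.420 FPKM. The highest library was thus a parental one and the lowest a mutant one, and the others interleaved. The parental mean was 1.13 ± 0.50 FPKM (SD, n = 3), the mutant mean was 1.03 ± 0.59 FPKM (SD, n = 3), and 11.4% to 15.5% of listed genes were below *brlA* in a library. In Δ*ku70* it stood at 0.0253 to 0.0544 of the library's median gene, and in Δ*rsrC* at 0.0158 to 0.0587.

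In limma the log2 change of *brlA*, -0.09, had an SE of 0.37, a 95% interval from -0.95 to 0.78 and an adjusted p of 0.868. With a pseudocount of 0.1, which compresses low values less, it was -0.21 with an SE of 0.67 and an adjusted p-value of 0.824. Its sign turned to 0.15 without Δ*rsrC* replicate 3. Without Δ*ku70* replicate 3 or without Δ*rsrC* replicate 1, *brlA* fell under the filter and was not fitted. Its mean FPKM in Δ*rsrC* then differed from that in Δ*ku70* by 22.3% in the first case and by -33.4% in the second. The intervals hold changes of either direction, so at this level a difference was not detectable, and neither was its absence shown.

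**Figure D3:**
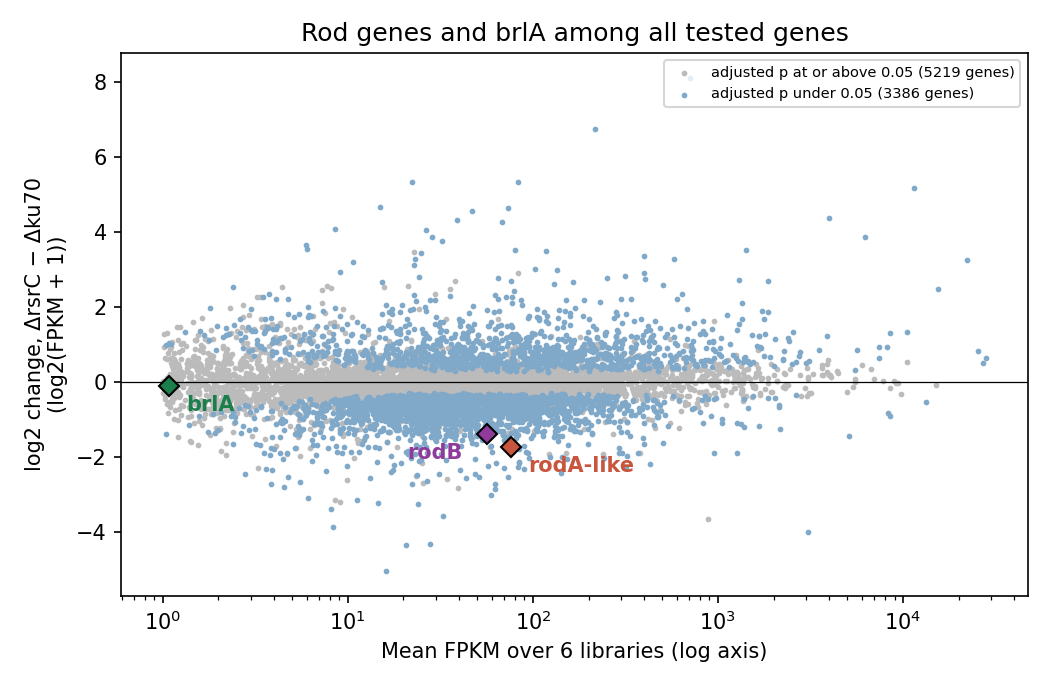
The log2 change of each of the 8605 tested genes (Δ*rsrC* minus Δ*ku70*) against its mean FPKM over the 6 libraries on a log axis, with the 3386 genes at an adjusted p-value under 0.05 in blue. Both rod genes lie in the lower part of the cloud at middle levels, and *brlA* lies near 0 at its far left end.

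Among the Δ*rsrC* libraries the 3 genes took the same order, with replicate 1 above replicate 2 and replicate 2 above replicate 3 for *rodA-like*, *rodB* and *brlA* alike. The same order held for 22.1% of all tested genes. Replicate 3 of Δ*rsrC* was the lowest of all 6 libraries for each of the 3 genes, as it was for 19.1% of tested genes. In Δ*ku70*, replicate 3 was the highest library for *rodA-like* and *brlA* and replicate 2 for *rodB*.

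The genes with the most similar profiles were found by the root mean square difference of log2(FPKM + 1), centred for each gene over the 6 libraries, among the 8604 other tested genes. For *rodA-like* these were *POX_c04598* (0.0937), *POX_c04607* (0.147) and *POX_h09909* (0.154), and *rodB* ranked at place 84 with 0.374. *POX_c04598* gave 5.79, 8.98 and 10.9 FPKM in the parental libraries, against 2.1, 2.42 and 1.0 FPKM in the mutant. *POX_h09909* gave 21.1, 25.0 and 28.4 FPKM in the parental libraries, against 8.19, 8.87 and 5.68 FPKM in the mutant. *POX_c04607* gave 2.34, 4.28 and 5.75 FPKM in the parental libraries, against 0.93, 1.03 and 0 FPKM in the mutant. All 3 stood at lower levels than *rodA-like* itself. Adding 1 to FPKM compresses the falls of low genes more, so their likeness applies to this scale. With a pseudocount of 0.1 the log2 change was -2.2 for *POX_c04598* and -3.02 for *POX_c04607*. On that scale it was -1.75 for *rodA-like* and -1.72 for *POX_h09909*.

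For *rodB* the nearest profiles were those of *POX_d05849* (0.217), *POX_h09706* (0.276) and *POX_h09908* (0.286), with *rodA-like* at place 11. *POX_d05849* gave 38.8, 44.7 and 41.0 FPKM in the parental libraries, against 34.9, 17.5 and 8.66 FPKM in the mutant, and like *rodB* it was lowest in mutant replicate 3. *POX_h09908* gave 8.58, 8.88 and 7.57 FPKM in the parental libraries, against 4.33, 3.38 and 1.57 FPKM in the mutant. It is the direct neighbour of *POX_h09909*, with 0 genes between them, so that each rod gene had 1 gene of this adjacent pair among its nearest profiles. The likeness of the low genes *POX_h09706* and *POX_h09908* to *rodB* also applies to this scale. With a pseudocount of 10 their log2 changes were -0.385 and -0.491, against -1.13 for *rodB* and -0.855 for *POX_d05849*.

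For *brlA* the nearest were *POX_f08509* (0.0957), *POX_a01593* (0.102) and *POX_g08856* (0.103), none of which passed the limma test (adjusted p of 0.850, 0.403 and 0.601). They were picked for likeness to a gene whose strain means differed little, so these outcomes follow from the choice. *rodB* ranked at place 7681 and *rodA-like* at place 7932 of 8604 for likeness to *brlA*. In turn, *brlA* ranked at place 1969 for likeness to *rodB* and at place 3599 for likeness to *rodA-like*. The measure counts the size of a change as well as its shape, so genes with a large fall rank far from a gene without one. These places therefore do not show whether the order of the libraries was shared. *POX_f08509*, at 36.1 to 78.2 FPKM, stood well above *brlA* and shared its low value in Δ*rsrC* replicate 3. Adding 1 to FPKM compresses the range of *brlA*, 0.42 to 1.71 FPKM, far more than that of *POX_f08509*, so their likeness applies to this scale. No function of these 9 genes was named in the part of the study's annotation used here, which stops early in gene order.

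**Figure D4:**
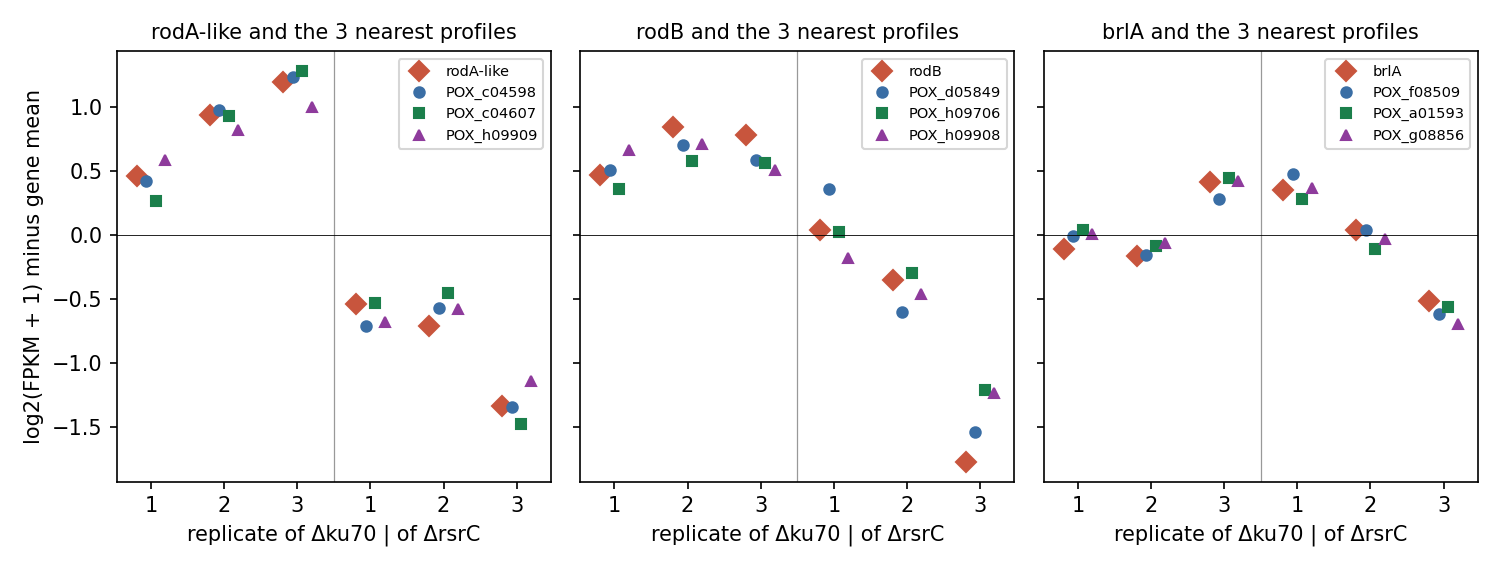
Centred log2(FPKM + 1) in the 6 libraries for each of the 3 genes (diamonds) and the 3 genes with the most similar profile, with the libraries of Δ*ku70* left and those of Δ*rsrC* right of the line. The *rodA-like* group shows the step between strains in every library, the *rodB* group shows its lowest values in Δ*rsrC* replicate 3, and the *brlA* group shows no step between the strains. Each group was chosen by likeness over these same libraries, so a shared pattern follows from the choice.

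Genes beside the members were compared to see whether their surroundings moved. The 2 members on chromosome III, *rodB* and *brlA*, have 60 genes between them, and *rodA-like* is on chromosome I. None of the 3 overlaps another gene in the RefSeq table. Up to 5 gene numbers on each side gave 29 neighbours, of which 25 were tested and 14 called, 5 as higher and 9 as lower, where 39.3% of all tested genes were called, 13.8% as higher and 25.6% as lower. The neighbours had a median log2 change of -0.17 against -0.13 for all tested genes.

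Beside *rodB*, 6 of 8 tested neighbours were called, 5 of them as lower, with a median log2 change of -0.67 (39.3% of all tested genes called, 25.6% as lower). The direct neighbour *POX_c03498* gave 7.78, 5.22 and 5.67 FPKM in the parental libraries, against 1.71, 1.54 and 1.51 FPKM in the mutant. Its log2 change was -1.47 (limma, adjusted p of 0.00375), beside -1.39 for *rodB*. *POX_c03492* fell to a mutant mean of 11.9 ± 0.86 FPKM (SD, n = 3), against a parental mean of 23.7 ± 7.14 FPKM (SD, n = 3), a log2 change of -0.90 with a limma adjusted p of 0.0155. In mutant replicate 3, these 2 genes stood close to the other mutant replicates, unlike *rodB*. *POX_c03500*, singled out after its values were seen, was listed at 64.8 FPKM in Δ*ku70* replicate 3 and at 0 in the other 5 libraries.

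Beside *rodA-like*, 3 of 10 neighbours were called, 1 as higher and 2 as lower, beside 39.3% called over all tested genes, and the median log2 change was -0.10. Beside *brlA*, 5 of 7 tested neighbours were called, 3 as higher and 2 as lower (13.8% and 25.6% of all tested genes), with a median of -0.06. *POX_c03562* rose to a mutant mean of 309 ± 25.8 FPKM (SD, n = 3), against 163 ± 35.7 FPKM (SD, n = 3) in the parent, a log2 change of 0.94 with a limma adjusted p of 0.00729. *POX_c03553* rose to 4.67 ± 1.54 FPKM (SD, n = 3), against 1.80 ± 0.77 FPKM (SD, n = 3) in the parent, a log2 change of 1.02 with a limma adjusted p of 0.0436. The adjusted p of *POX_c03553* ranged up to 0.137 over the alternatives.

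**Figure D5:**
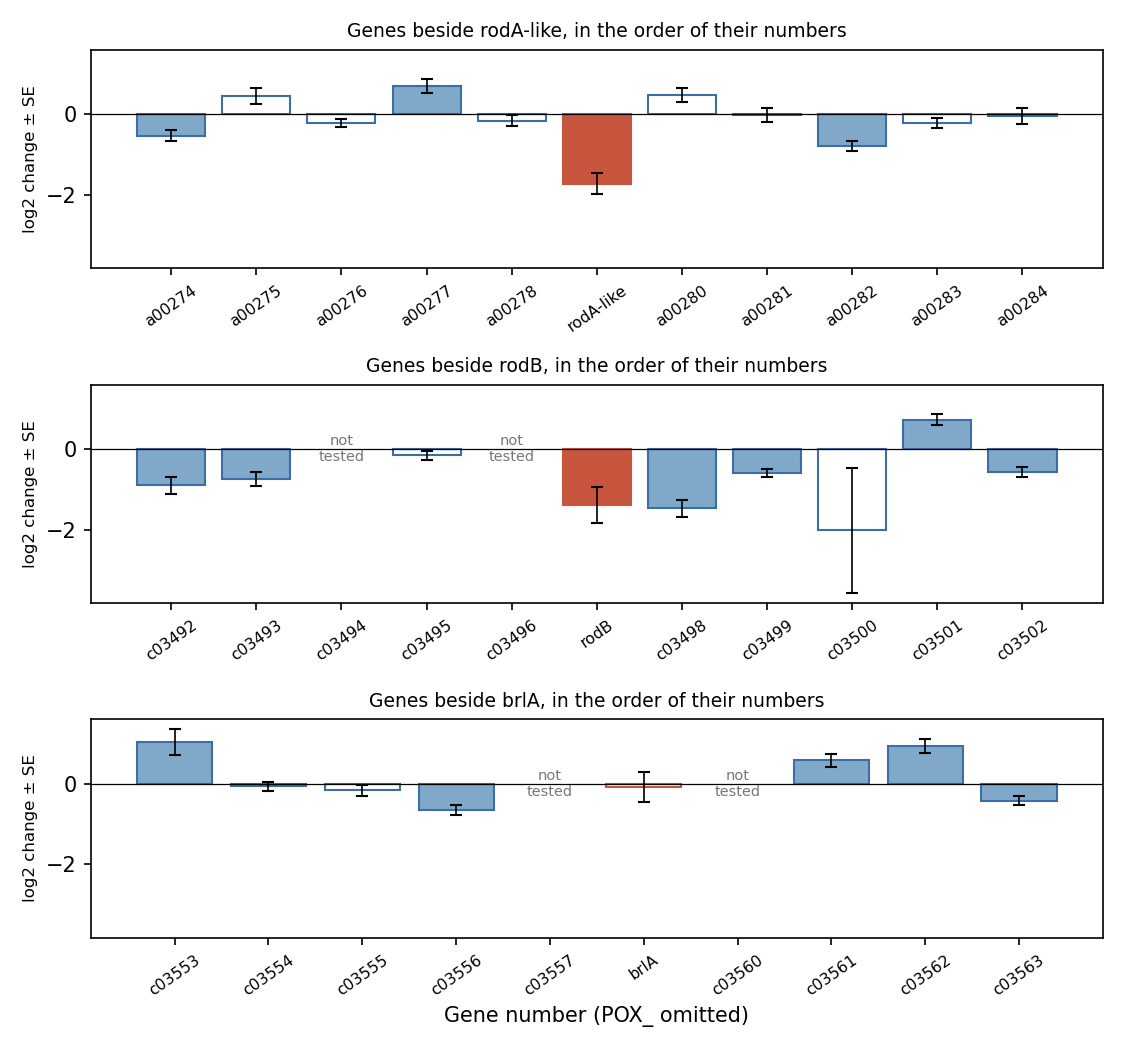
The log2 change (Δ*rsrC* minus Δ*ku70*) with its SE of each member (red) and of its neighbours in gene order (blue), filled where the adjusted p-value was under 0.05. Lower values prevail beside *rodB*, both directions occur beside *rodA-like* and *brlA*, and the wide error bar belongs to *POX_c03500*, which was listed above 0 in 1 library only.

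Other genes of the hyphal wall were read beside the rod genes, since the hydrophobins of *Aspergillus* rod genes coat a wall of chitin and glucan. Whether the 2 rod genes here encode hydrophobins was not tested. The list holds 8 genes that the study's tables for 2 other mutants annotate as chitin synthase families, glucan synthase or wall glucan synthesis. Those tables list changed genes, and only their first part in gene order was used here, so the list is partial. It was not drawn from this comparison, but it was chosen with earlier results of these data known. The other mutants may also have been compared with the same parental libraries. All 8 genes were expressed in every library, from 17.1 to 798 FPKM, the lowest being *POX_a00583* and the highest *POX_c04363*. Of the 8, 4 were called as lower and 1 as higher, where 25.6% and 13.8% of all tested genes were, with a median log2 change of -0.08 against -0.13 for all tested genes.

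The glucan synthase family gene *POX_a01726* (GT48, the family that makes β-1,3-glucan) gave 223, 250 and 209 FPKM in the parental libraries, against 145, 117 and 136 FPKM in the mutant. Its log2 change was -0.77 with an SE of 0.13 and a limma adjusted p of 0.00518. The chitin synthase family gene *POX_a01306* gave 130, 133 and 102 FPKM in the parental libraries, against 68.6, 70.3 and 80.9 FPKM in the mutant. Its log2 change was -0.72 with a limma adjusted p of 0.00888. Its direct neighbour *POX_a01307*, of the same family, fell with a log2 change of -0.48 (limma adjusted p = 0.0472), and *POX_b02239* with -0.62 (limma adjusted p = 0.0134). *POX_a00583* rose with a log2 change of 0.62 (limma adjusted p = 0.0462). The calls of *POX_a01307* and *POX_a00583* were each lost under 10 of 15 alternatives, and the count over the list ranged from 3 to 6.

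The other 3 wall genes did not pass. *POX_a00964* had a log2 change of 0.33 (limma adjusted p = 0.0777), *POX_a01921* 0.80 (0.110) and *POX_c04363*, annotated for wall glucan synthesis, 0.34 (0.144). None of the 8 wall genes had its lowest value in Δ*rsrC* replicate 3, where all 3 members and 19.1% of all tested genes did. With so small a share over all genes, its absence among 8 genes does not set the wall genes apart.

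Genes tied to development were taken from the same tables, 6 in all, with the same limits. In *Aspergillus*, an APSES protein (StuA) shapes the conidiophore, a G protein α subunit (FadA) favours growth over conidiation, and some AA1 multicopper oxidases are laccases of the conidial pigment. Of the 6 genes, 1 was called, as lower, where 25.6% of all tested genes were, and the median log2 change was -0.13, equal to that of all tested genes.

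The gene called was the G protein α subunit gene *POX_c03616*, with 237, 228 and 220 FPKM in the parental libraries, against 139, 155 and 168 FPKM in the mutant. Its log2 change was -0.57 with an SE of 0.11 and a limma adjusted p of 0.00883. The other G protein α subunit gene, *POX_b03091*, ranged from 35.4 to 37.3 FPKM in the parental libraries and from 33.4 to 36.6 FPKM in the mutant (log2 change -0.07, adjusted p = 0.599). Its log2 change turned to 0.07 after median-ratio scaling and to 0.13 after quantile normalization, and after TPM rescaling it was -0.29 and past the threshold (0.0371).

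Of the 2 APSES family genes, *POX_a01877* was low, with 1.30, 2.00 and 3.24 FPKM in the parental libraries, against 8.31, 3.44 and 4.32 FPKM in the mutant. Its groups did not overlap, as was also so for 1671 of 8605 tested genes in the higher direction. With a log2 change of 0.97 *POX_a01877* missed the threshold (limma adjusted p = 0.0682). *POX_a00725* ranged from 20.1 to 23.6 FPKM in the parental libraries and from 23.6 to 27.8 FPKM in the mutant, with a log2 change of 0.22 (adjusted p = 0.165). The AA1 genes *POX_a00498*, near 1 FPKM like *brlA*, and *POX_a00537*, at 13.2 to 21.2 FPKM, did not pass either, with a log2 change of -0.21 (adjusted p of 0.583) for the first and -0.20 (0.384) for the second.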

How the data were processed

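RNA-seq of 6 libraries of mycelium was analysed. Per the study, reads from a BGISEQ platform were aligned with BWA and Bowtie2 and quantified with RSEM. The submitters' processing notes name bcl2fastq and HISAT2, so neither the read processing nor the aligner behind the FPKM values is settled. The authors deposited 1 table of FPKM per library, with 9822 genes, rounded to 2 decimals, without pooling; counts and depth are unknown. Groups came from the sample titles.

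Values were transformed as log2(FPKM + 1). Genes whose mean reached 1 FPKM (8605) were tested with limma 3.58.1 (R 4.3.3; lmFit, eBayes with an intensity trend), two-sided, without covariates. For single values per library an exact permutation test (two-sided) was used. The fit was tested on simulated data. The alternatives were pseudocounts of 0.1 and 10, other filters, TPM, median-ratio and quantile scaling, no trend, a replicate block and leaving out each library.

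The members and lists were chosen with earlier results of these data known. Text names the members, the wall and development lists, at most 2 called neighbours or C2H2 genes in each direction, and the 3 nearest profiles per member. The RefSeq table of ASM172317v3 matched 9718 IDs and gave gene order only. Lists planned by protein pattern (hydrophobin cysteines, C2H2 fingers, TEA motif) were not run, since no protein table was used here.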

Additional observations from a re-analysis of the deposited data

How the results depend on the processing

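The fall of *rodA-like* POX_a00279 kept its direction and its call in all 15 alternatives. That of *rodB* POX_c03497 kept its direction but lost its call with no filter, without a trend and with the replicate block (log2 change -1.39 each), after quantile normalization (-1.24) and with median-ratio scaling (-1.25). Over the fits without 1 library, each with fewer samples, its log2 change was -1.76 to -0.85, that of *rodA-like* -1.93 to -1.49, that of *brlA* POX_c03558 -0.19 to 0.15 (4 fits) and the difference in log2 ratio of the rod genes -0.64 to -0.11.

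Calls over all genes were 3386 as reported (1184 higher, 2202 lower), 4395 after TPM rescaling (742 and 3653), 2852 after quantile normalization (1373 and 1479), 3112 with median-ratio scaling (1623 and 1489), 2213 with the replicate block and 2126 to 3476 without 1 library, fewest without Δ*rsrC* replicate 1. The median log2 change of all genes was -0.35 after TPM rescaling and 0.00 after median-ratio scaling. Wall genes called were 3 with no filter, after quantile normalization, without a trend and with the replicate block, and 3 to 6 without 1 library. Development genes called were 2 after TPM, median-ratio and quantile scaling, and 1 to 2 without 1 library. Neighbours called were 9 to 14 without 1 library, with 9 without Δ*rsrC* replicate 1 or 2. For quantile normalization the cause was not tested.

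Signs turned for POX_a00537 after quantile normalization (0.019), POX_b03091 after median-ratio (0.071) and quantile (0.13) scaling, and POX_f08509 after the same (0.065 and 0.085). Over the fits without 1 library, POX_f08509 ranged from -0.33 to 0.22, also positive (0.048) without the third parental library, and POX_g08856 from -0.49 to 0.046; both maxima came without Δ*rsrC* replicate 3. The deviations of same-numbered libraries correlated at 0.00, -0.13 and -0.24, which gave no sign of pairing by number. With so few libraries this check cannot exclude that same-numbered cultures were handled together. Low genes such as *brlA* are limited by unknown depth.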

Other observations

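Genes of the protein family of *brlA* were also read. The first part, in gene order, of the study's tables for 2 other mutants annotates 21 genes as C2H2 zinc-finger factors beside *brlA* and the deleted *rsrC*. This list was chosen after the data were seen, in place of one by protein pattern. Those tables hold genes that changed in the other mutants, which may have been compared with the same parental libraries. Of the 21 genes, 9 were called, all as lower in Δ*rsrC*, with a median log2 change of -0.33, where 25.6% of all tested genes were called as lower and the median was -0.13. The count ranged from 5 to 11 over the alternatives and was 5 without Δ*rsrC* replicate 1. *POX_c03606* fell from 224, 351 and 149 FPKM in the parental libraries to 83.6, 90.8 and 99.2 FPKM in the mutant. Its log2 change was -1.31 with a limma adjusted p of 0.0135. *POX_a01786* fell from 147, 243 and 127 FPKM to 70.2, 80.5 and 85.7 FPKM. Its log2 change was -1.07 with a limma adjusted p of 0.0147. Both adjusted p-values rose above 0.05 without Δ*rsrC* replicate 1 (0.0511 and 0.0551). Over the 6 libraries *brlA* had the lowest mean FPKM of the genes so annotated there.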
